A study of Mus musculus with 6 samples.

Results

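The 40 genes described here encode subunits and close partners of the repressive chromatin complexes that have been found with Tet1 at promoters. They comprise 8 genes of Polycomb repressive complex 2 (PRC2), 16 of Polycomb repressive complex 1 (PRC1), 4 of the Sin3 and Ogt group, 8 of the nucleosome remodelling and deacetylase complex (NuRD), and 4 histone deacetylase and histone-binding genes shared between complexes. They were taken by symbol from a list of names, and 40 of 40 were found among the 20325 genes in the gene tables. Messenger RNA was sequenced from 2 mouse lines, pre3 and pre2-2, which the series describes as pre-iPSCs, that is, partially reprogrammed cells. In each line 1 library came from cells given siRNA against Tet1 (siTet1), 1 from cells given control siRNA and 1 from untransfected cells, 6 libraries in all. All 6 were grown in LIF-containing mouse embryonic stem cell medium with vitamin C at 50 µg/ml, so every value here was measured in the presence of vitamin C. The cells are labelled as OG2 transgenic mouse embryonic fibroblasts (OG2 being a green fluorescent protein reporter driven by Pou5f1 sequence) at passage 10, on a mixed 129SVJ, C57B6 and CBA background. The series text puts vitamin C at 16 h after transfection and RNA at 32 h after that, whereas the sample descriptions give 36 h of vitamin C, and the sample labels call the reagent a Tet siRNA where the titles name Tet1. Whether a line is 1 clone, and whether the libraries came from separate cultures, is not given in the sources used here.

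PRC2 places the repressive mark H3K27me3 through Ezh1 or Ezh2, with Eed and Suz12 as its core partners and Jarid2, Mtf2, Phf1 and Phf19 as accessory subunits that steer it to CpG islands. PRC1 ubiquitinates histone H2A through Rnf2 or Ring1 paired with a Pcgf protein, and its Cbx subunits can read H3K27me3 while Rybp replaces them in variant complexes. Sin3a and Sin3b are scaffolds that bring histone deacetylases to promoters, and NuRD joins the same deacetylases to the chromatin remodellers Chd3 and Chd4. Tet1, which oxidises 5-methylcytosine, sits at CpG-rich promoters in embryonic stem cells and has been found there together with PRC2, Sin3a, Ogt and NuRD.

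The promoter sequence is given for 3 members: for Phf19 and Mta2, which were lower with siTet1 than in untransfected cells, and for Cbx7, which differed most in size between the lines among the members called higher in pre3. Each sequence covers 200 bases, from 250 to 51 bases before the annotated transcription start in RefSeq (assembly GRCm38.p6), written 5′ to 3′ on the gene's strand, with each CG dinucleotide in capitals. The stretches are chr2:34914027-34914226 on the minus strand for Phf19, chr19:8941670-8941869 on the plus strand for Mta2 and chr15:79932697-79932896 on the minus strand for Cbx7, and lie upstream of the gene in its promoter.
Phf19: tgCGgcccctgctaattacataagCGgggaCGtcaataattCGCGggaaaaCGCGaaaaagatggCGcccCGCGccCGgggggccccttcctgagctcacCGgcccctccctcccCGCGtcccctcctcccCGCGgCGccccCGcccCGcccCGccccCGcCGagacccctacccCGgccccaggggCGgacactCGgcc
Mta2: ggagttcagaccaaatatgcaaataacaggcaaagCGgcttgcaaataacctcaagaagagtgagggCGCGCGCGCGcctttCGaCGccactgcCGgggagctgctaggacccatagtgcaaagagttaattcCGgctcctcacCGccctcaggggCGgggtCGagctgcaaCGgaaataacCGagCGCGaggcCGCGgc
Cbx7: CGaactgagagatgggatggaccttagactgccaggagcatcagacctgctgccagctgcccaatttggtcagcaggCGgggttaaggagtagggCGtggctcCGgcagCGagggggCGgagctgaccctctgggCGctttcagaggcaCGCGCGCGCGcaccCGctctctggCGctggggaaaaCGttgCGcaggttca
The Phf19 stretch holds 25 CG dinucleotides, a number matched or passed in 4.83% of the 32851 RefSeq mouse promoters searched over the same window. The Mta2 stretch holds 19, which 10.9% of promoters match or pass, and the Cbx7 stretch holds 16, which 15.9% match or pass. Over all promoters the median was 4 CG dinucleotides and 89.1% held at least 1. RefSeq promoters were matched for 34 of the 40 members, 45 promoters in all, with a median of 14 CG dinucleotides and a range of 1 to 31. These counts describe the letters of the windows and say nothing of Tet1 binding or of methylation in these cells.

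Tet1 itself was lower in both lines given siTet1. It stood at 159 CPM in pre3 and 154 CPM in pre2-2 with siTet1, 250.5 and 246 CPM with control siRNA, and 205 and 250.2 CPM in untransfected cells, where CPM is the count scaled to a library of 1000000 with TMM factors. A series-wide table, not used here, heads the matching pre2-2 column siTet2 in place of siTet1; Tet2 in the library titled siTet1 gave 67.9 CPM, against 71.4 CPM with control siRNA and 89.8 CPM untransfected. The fitted log2 difference of Tet1 was -0.67 (SE 0.13, adjusted p = 0.0042) in edgeR's quasi-likelihood test between siTet1 and control siRNA, and -0.54 (SE 0.13, adjusted p = 0.0094) between siTet1 and untransfected cells. Tet1 was not called in DESeq2 (adjusted p = 0.1 and 0.18), or in edgeR when the siTet1 library of pre2-2 was left out (0.32 and 0.4). Leaving out the control siRNA library of pre3 ended the first call (0.23), and leaving out the untransfected library of pre2-2 the second (0.12). Library totals ran between 1868640 and 2582803 expected counts, and members received between 5.0 and 1736 of them, with 7 members under 50 counts in every library. Log2 CPM values correlated at 0.950 to 0.971 across genes between libraries of a line and at 0.874 to 0.931 between libraries of different lines, with genes not independent replicates. Against the fibroblast label, Pou5f1 stood at 9097, 8677 and 9358 TPM (transcripts per 1000000) in the siTet1, control siRNA and untransfected libraries of pre3, against 1808, 1629.8 and 1826 TPM in those of pre2-2. Counts are per gene symbol, so transcripts of any introduced copy of Pou5f1 would not be told apart from the cell's own. Nanog did not pass 5.60 TPM and Esrrb 0.709 TPM in any library, while all 8 fibroblast markers examined had counts in every library and summed to between 2082 and 5498 TPM.

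Levels are compared between genes in TPM, which is per transcript length. Of the shared subunits, 3 of 4 had the highest medians of all members. Rbbp7, a histone-binding WD40 protein common to PRC2, Sin3 and NuRD, had the highest median over the 6 libraries at 270.3 TPM (range 214 to 307), followed by the deacetylases Hdac1 at 261 TPM (244 to 275) and Hdac2 at 245 TPM (202 to 274). The ranges of these 3 overlap, so their order is not separated by the spread over libraries. Rbbp4, the close paralogue of Rbbp7, stood lower at 172 TPM (146 to 190.0), with no overlap with Rbbp7, and below Phc1, Sin3b, Chd4 and Mta1 by median. Rbbp7 supplied 59.5 to 62.2% of the summed TPM of both genes, and Hdac1 48.7 to 57.6% of the summed TPM of Hdac1 and Hdac2.

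Core PRC2 was present at intermediate levels. Ezh2, the methyltransferase of dividing cells, had a median of 112 TPM (97.4 to 121), the scaffold Suz12 92.7 TPM (67.7 to 97.9) and the H3K27me3 reader Eed 82.8 TPM (52.1 to 95.4). Ezh1, the alternative methyltransferase, was far below Ezh2 at 16.4 TPM (14.2 to 23.97), so Ezh2 made up 80.3 to 88.7% of the pair's TPM. The accessory subunit Jarid2 stood at 59.5 TPM (34.9 to 83.3). Among the 3 Polycomb-like proteins, which bind CpG-rich DNA, Mtf2 led with 52.1 to 69.7% of their summed TPM. Phf19 had the widest swing of them, with 7.42% of that sum in siTet1, 18.6% in control siRNA and 23.4% in untransfected cells of pre3, against 21.98%, 30.4% and 31.2% in those of pre2-2.

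PRC1 spanned the widest range of levels. The polyhomeotic gene Phc1 was its highest member at 195 TPM (181 to 212) and carried 61.6 to 71.9% of the summed TPM of Phc1, Phc2 and Phc3. Rnf2, the main H2A ubiquitin ligase, stood at 72.4 TPM (56.1 to 88.2) and made up 79.7 to 85.7% of its pair with Ring1. No Pcgf gene dominated: of the 6, which set which kind of PRC1 forms, Pcgf3 held 21.8 to 29.6% of their summed TPM, Pcgf6 18.4 to 23.3%, Bmi1 16.5 to 21.8% and Pcgf2 15.3 to 20.01%, and neighbours in this order had ranges that overlap. Of the 4 Cbx genes listed, Cbx6 held 49.6 to 59.6% of the summed TPM, and Cbx2, Cbx7 and Cbx8 were among the lowest of all 40 members at medians of 8.49, 10.6 and 8.45 TPM. Rybp, the subunit of variant PRC1, stood at 47.9 TPM (36.9 to 58.5).

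In the Sin3 and NuRD groups a leading paralogue could be told from the other only in some families. Sin3b had a median of 190.0 TPM (143 to 198) and Sin3a 58.8 TPM (54.2 to 65.1), so Sin3b made up 68.7 to 78.03% of the pair. Ogt, the enzyme that attaches O-linked N-acetylglucosamine, stood at 82.5 TPM (72.9 to 98.1), and its substrate Hcfc1 at 104 TPM (92.8 to 116). Chd4, the remodeller usually found in NuRD, held 84.7 to 89.5% of the pair with Chd3. The 3 Mta scaffold genes had medians of 183 TPM for Mta1, 121 TPM for Mta2 and 114 TPM for Mta3. Mta1 supplied 47.2 to 49.4% of their summed TPM in pre3, against 35.9 to 39.9% in pre2-2. Mbd3, the subunit that distinguishes the Mbd3 form of NuRD, stood at 164 TPM (144 to 181).

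**Figure D1:**
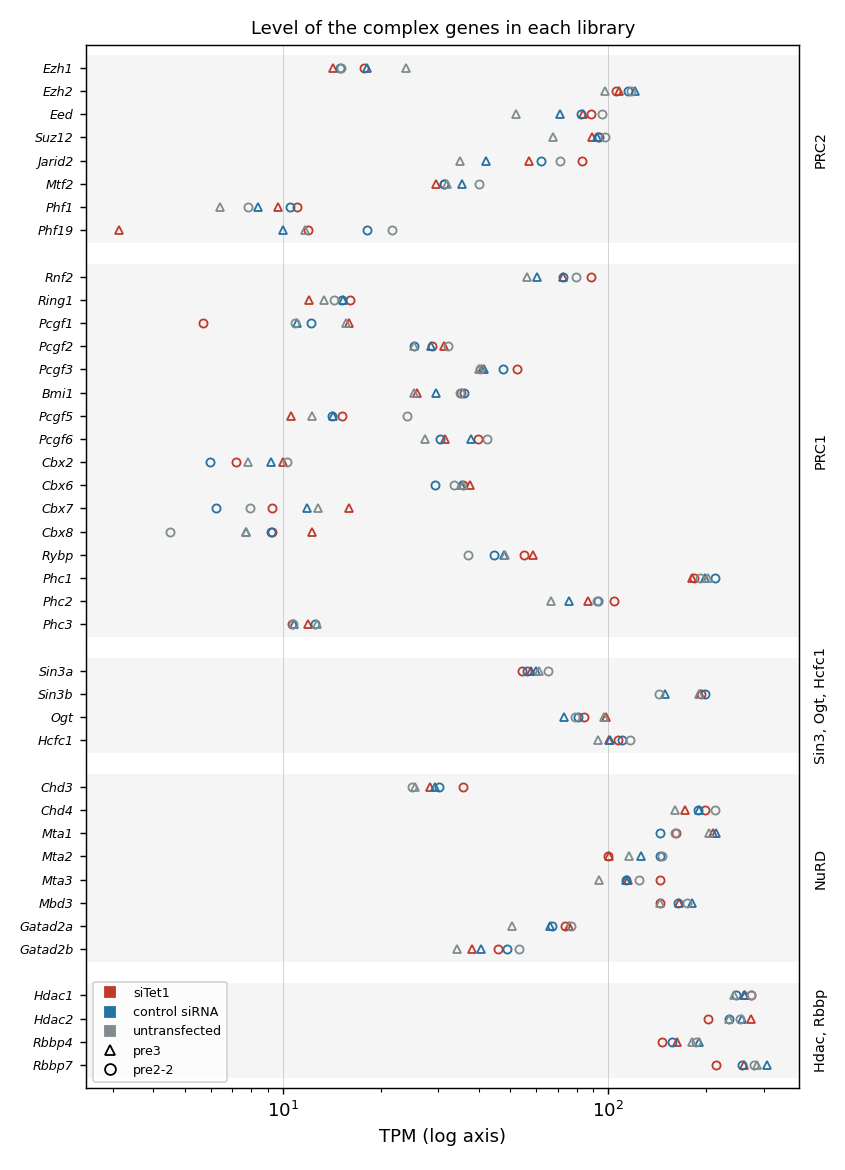
Level of each of the 40 genes in the 6 libraries in TPM on a log axis, grouped by complex, with one point per library coloured by treatment and shaped by line. The genes run between 3.14 TPM, for Phf19 in pre3 with siTet1, and 307 TPM, for Rbbp7, and most genes keep within a narrow band over the libraries.

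The first comparison asks how the mRNA of these complexes differs when Tet1 is targeted, with control siRNA as the reference. No member was called between siTet1 and control siRNA at an adjusted p under 0.05 in edgeR's quasi-likelihood test with the line as a term, against 1.58% of the 11048 genes tested, 1.15% higher and 0.434% lower. At an unadjusted p under 0.05 there were 4 members (10%, against 10.8% of all genes), and DESeq2 called 0 members and gave 3 at that unadjusted level. The median log2 difference over the members was 0.01, against 0.00 over all genes, with 20 positive and 20 negative. For 36 of 40 members (90.0%) the 95% interval of the difference lay within a 2-fold change either way, against 79.0% of all genes tested. The 4 whose intervals reached past 2-fold were Phf19 (-1.52 to -0.36), Pcgf1 (-1.33 to 1.03), Cbx7 (-0.15 to 1.09) and Cbx8 (-0.68 to 1.35), with 5.0 to 103 counts per library. With the line as a term, the p-values measure how far the treatment differences disagreed between the 2 lines, over all 3 treatments. That left 2 residual degrees of freedom per gene, and the spread was drawn towards that of other genes (median prior degrees of freedom 23.4). With 1 library per line and treatment, this spread may be partly technical.

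The 3 core PRC2 genes gave small differences that did not pass the test. Ezh2 stood at 143 CPM in pre3 and 132 CPM in pre2-2 with siTet1, 159 and 145 CPM with control siRNA, and 136 and 153 CPM in untransfected cells, and its log2 difference between siTet1 and control siRNA was -0.15 (SE 0.13, adjusted p = 0.77) in edgeR. Suz12 gave -0.03 (95% interval -0.31 to 0.24) and Eed 0.16 (-0.19 to 0.52). Ezh2 values were lower and Eed values higher with siTet1 in each line, and the Suz12 values of the 2 treatments overlapped.

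Of the accessory PRC2 subunits, Phf19 had the lowest difference of the 40 members and Jarid2 was next to the highest. Phf19, which reads H3K36me3 through its Tudor domain and helps PRC2 enter active regions, stood at 5.85 CPM in pre3 and 21.1 CPM in pre2-2 with siTet1, 18.7 and 32.4 CPM with control siRNA, and 23.1 and 40.02 CPM in untransfected cells. It was lowest with siTet1 in each line, and in pre3 the siTet1 library had only 11 counts for it. The log2 difference between siTet1 and control siRNA was -0.94 (SE 0.28, adjusted p = 0.11) in edgeR, which did not reach the threshold for a call. Jarid2, which recruits PRC2 and limits its activity, stood at 139.9 CPM in pre3 and 193 CPM in pre2-2 with siTet1, 103 and 145 CPM with control siRNA, and 90.8 and 172 CPM in untransfected cells. Jarid2 was higher with siTet1 than with control siRNA in each line, but the groups overlapped between lines, and its log2 difference was 0.43 (SE 0.14, adjusted p = 0.16) in edgeR. Ezh1, Mtf2 and Phf1 gave -0.04, -0.14 and 0.13.

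None of the 16 PRC1 genes passed even the unadjusted threshold between siTet1 and control siRNA, and their differences ran between -0.17 and 0.47 with a median of 0.11. Rnf2 stood at 109.6 CPM in pre3 and 126 CPM in pre2-2 with siTet1, 90.6 and 104 CPM with control siRNA, and 89.3 and 119 CPM in untransfected cells, a log2 difference of 0.27 (SE 0.14, adjusted p = 0.5) in edgeR. Rybp stood at 128 CPM in pre3 and 113 CPM in pre2-2 with siTet1, 104 and 92.6 CPM with control siRNA, and 111 and 79.7 CPM in untransfected cells, a difference of 0.29 (SE 0.14, adjusted p = 0.46) in edgeR. Both were higher with siTet1 in each line without passing the test. Bmi1, the best known Pcgf gene for its role in stem cell self-renewal, gave -0.11 (95% interval -0.46 to 0.24) and Phc1 -0.17 (-0.40 to 0.06). Cbx7, the H3K27me3 reader of embryonic stem cells, had the largest positive value at 0.47 (SE 0.30, adjusted p = 0.62) in edgeR on 17 to 43.2 counts per library.

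The 4 Sin3 and Ogt genes gave log2 differences of -0.05 for Sin3a, 0.15 for Sin3b, 0.24 for Ogt and -0.03 for Hcfc1. Sin3a stood at 145 CPM in pre3 and 128 CPM in pre2-2 with siTet1, 149 and 134 CPM with control siRNA, and 161 and 161 CPM in untransfected cells. Its values with siTet1 and control siRNA overlapped, and the 95% interval of the difference was -0.33 to 0.22.

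In NuRD the scaffold subunit Mta2 had the lowest difference of the 8 genes. It stood at 154 CPM in pre3 and 146 CPM in pre2-2 with siTet1, 193 and 212 CPM with control siRNA, and 188 and 222 CPM in untransfected cells. Both siTet1 libraries lay below all 4 others. The log2 difference between siTet1 and control siRNA was -0.43 (SE 0.13, adjusted p = 0.11) in edgeR, which did not reach the threshold. Its paralogues gave 0.06 for Mta1 and 0.19 for Mta3, and Mta2 held 23.6% of the summed TPM of the 3 in siTet1, 27.8% in control siRNA and 27.9% in untransfected cells of pre3, against 24.7%, 35.9% and 33.9% in those of pre2-2. Chd4 gave -0.04 (95% interval -0.26 to 0.18), Mbd3 -0.17 (-0.46 to 0.12), Hdac1 0.07 (-0.18 to 0.31) and Hdac2 -0.05 (-0.32 to 0.21). Rbbp7 gave -0.25 (SE 0.12, adjusted p = 0.42) in edgeR, with lower values in siTet1 than in control siRNA in each line.

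Phf19, Mta2 and Jarid2 changed side of the threshold with the libraries fitted. With only the 4 siTet1 and control siRNA libraries and the line as a block, edgeR called all 3 (log2 differences of -0.93, -0.44 and 0.42, adjusted p = 0.014, 0.0011 and 0.005), as it did when either the pre3 or the pre2-2 untransfected library was left out. It called none of them when a siTet1 or control siRNA library was left out, and DESeq2 called none (adjusted p = 0.9998 each). Phf19 then ran between -1.65, without the siTet1 library of pre2-2, and -0.63, without that of pre3. Without the siTet1 library of pre2-2 Mta2 gave -0.29. In this comparison 6 of 7 interferon response genes tested were lower with siTet1 in edgeR. Of these, Ifit1 turned positive (0.40 and 0.51) without the control siRNA or the siTet1 library of pre2-2. Against untransfected cells 7 of 7 were called higher with control siRNA (median log2 difference 4.89) and 5 of 7 with siTet1. Lower here therefore means below the raised control siRNA values. Between siTet1 and control siRNA, 0 of 6 mitosis genes were called in edgeR (3 at an unadjusted p under 0.05) and 0 in DESeq2. Of the pluripotent cell markers tested, 2 of 4 were called higher with siTet1 in edgeR (median log2 difference 0.45). Of the fibroblast markers 1 of 8 was called higher (median -0.05), and of the endothelial markers tested 0 of 2 were called. The part of these marker genes in the values of Phf19, Mta2 and Jarid2 was not tested.

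**Figure D2:**
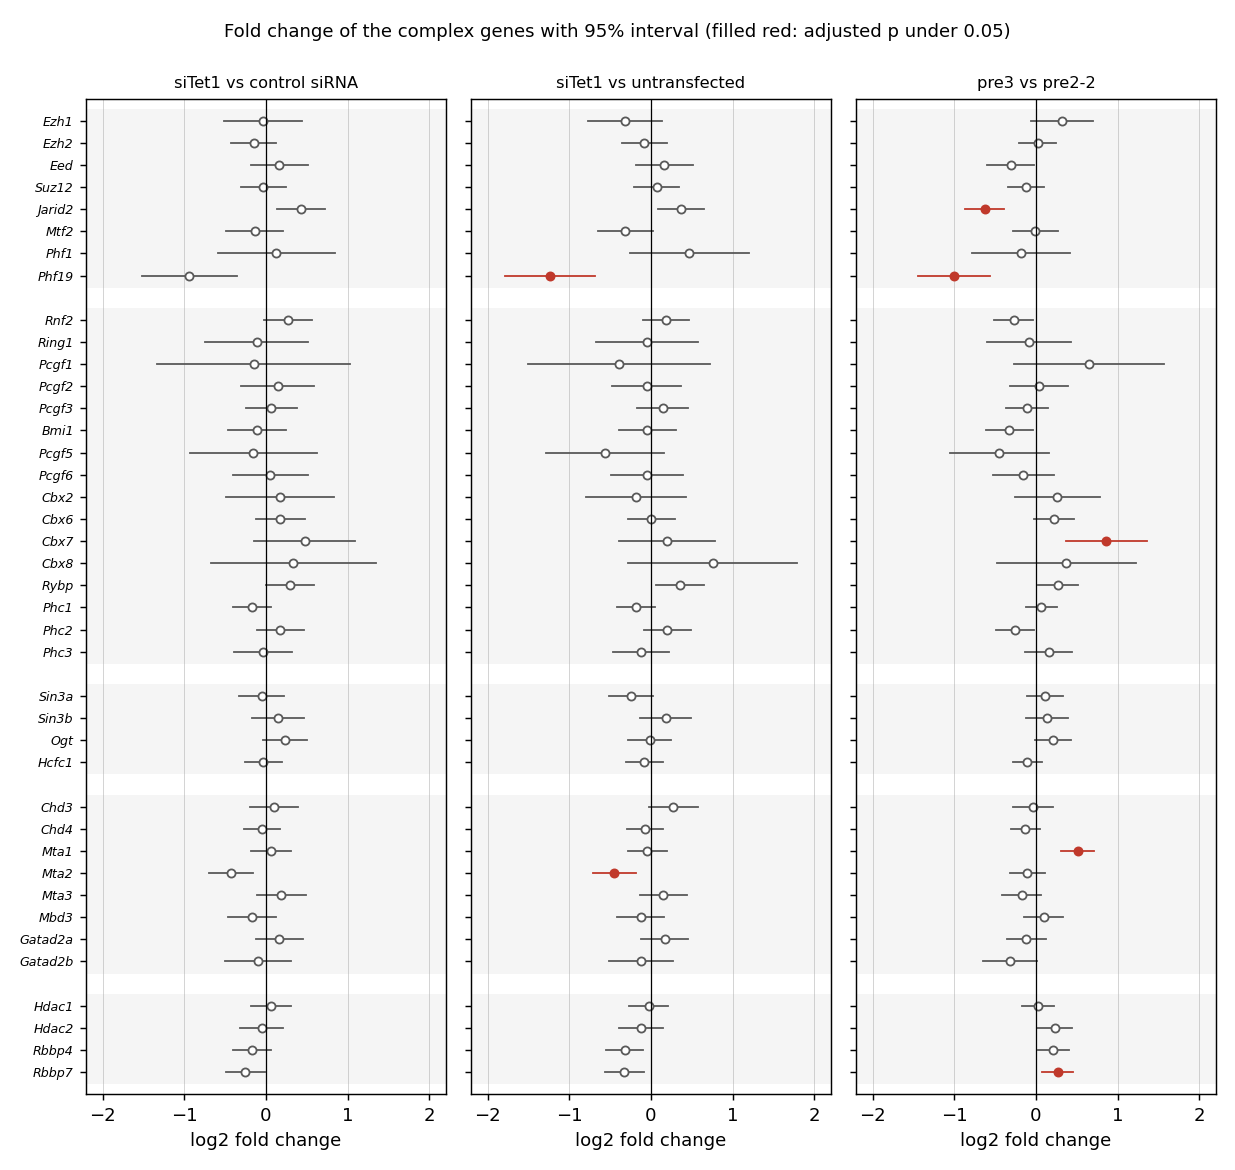
Fitted log2 differences of the 40 genes with 95% intervals from edgeR, grouped by complex, in 3 panels for siTet1 against control siRNA, siTet1 against untransfected cells and pre3 against pre2-2. Most intervals cross 0. Phf19 and Mta2 pass the test in the second panel, with differences of -1.24 and -0.45, and 5 genes pass it in the third.

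Against untransfected cells, 2 of 40 members were lower with siTet1 and 0 were higher, while 6.55% of all genes were called, 4.92% higher and 1.63% lower. These were Phf19, with a log2 difference of -1.24 (SE 0.27, adjusted p = 0.0043), and Mta2, with -0.45 (SE 0.13, adjusted p = 0.033), both in edgeR and both lower in each line. For Phf19 the siTet1 values of 5.85 and 21.1 CPM in pre3 and pre2-2 compare with 23.1 and 40.02 CPM in untransfected cells, and these groups do not overlap. For Mta2 the siTet1 values of 154 and 146 CPM compare with 188 and 222 CPM in untransfected cells, again with no overlap. The siTet1 libraries are the same as in the comparison with control siRNA, so these values add no independent support to it. At an unadjusted p under 0.05 there were 6 members (15.0%, against 19.5% of all genes), the other 4 being Rbbp4 at -0.32, Rbbp7 at -0.33, Jarid2 at 0.37 and Rybp at 0.35.

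Both calls depended on particular libraries and on the test. With the line left out of the model edgeR called 0 members. DESeq2 also called 0, with adjusted p of 0.16 for Phf19 and 0.44 for Mta2. Leaving out the siTet1 library of pre3 ended the call of Phf19 (-0.93, adjusted p = 0.058), and the other 5 omissions did not, with -1.97 when the siTet1 library of pre2-2 was left out. For Mta2 the adjusted p was 0.72 when the siTet1 library of pre2-2 was left out (-0.31), 0.19 when the untransfected library of pre2-2 was (-0.34) and 0.067 when either control siRNA library was. Without the pre3 untransfected library edgeR called 8 members, namely Hdac2, Mta2, Mtf2, Phf19, Rbbp4, Rbbp7, Rybp and Sin3b, and without the pre2-2 untransfected library it called Gatad2a, Jarid2 and Phf19.

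Markers of other cell states moved in this comparison too. Of 6 mitosis genes examined 3 were called lower with siTet1 in edgeR and 0 in DESeq2, and all 6 had negative differences. They summed to 1211 and 973 TPM in siTet1 cells of pre3 and pre2-2, against 1401 and 1333 TPM in untransfected cells. In edgeR, fibroblast markers were higher for 6 of 8 and summed to 2609.8 and 5498 TPM in siTet1 cells of pre3 and pre2-2, against 2082 and 2795 TPM in untransfected cells. With control siRNA they summed to 2300 and 4960 TPM, and 4 of 8 were called higher than in untransfected cells. Their median log2 difference from untransfected cells was 0.73 with control siRNA and 0.70 with siTet1. Interferon response genes were higher for 5 of 7 tested, and the 8 examined summed to 48.5 and 163 TPM in siTet1 cells, against 6.60 and 39.9 TPM in untransfected cells. With control siRNA these 8 summed to 109 and 567 TPM. Pluripotent cell markers were higher for 2 of 4 tested, and the 7 examined summed to 10827 and 3250.5 TPM in siTet1 cells, against 10644 and 2824 TPM in untransfected cells. Pou5f1 made up most of each of these sums. Of 2 endothelial markers tested 1 was higher and 1 lower, and the 3 examined summed to 3.62 and 14.9 TPM in siTet1 cells, against 5.66 and 18.9 TPM in untransfected cells. Their part in the lower Phf19 and Mta2 was not tested, and in bulk RNA fewer cells of a type and less RNA per cell cannot be told apart.

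Control siRNA against untransfected cells gives the background of transfection. No member was called, in edgeR or in DESeq2, against 1.48% of all genes in edgeR (1.38% higher and 0.0996% lower), and 0 members passed an unadjusted p under 0.05 in either tool. Phf19 stood at 18.7 and 32.4 CPM with control siRNA in pre3 and pre2-2, against 23.1 and 40.02 CPM in untransfected cells, a difference of -0.30 (SE 0.24, adjusted p = 0.81) in edgeR. Mta2 stood at 193 and 212 CPM with control siRNA, against 188 and 222 CPM in untransfected cells, a difference of -0.02 (SE 0.13, adjusted p = 0.99) in edgeR. Over all members the differences ran between -0.41 and 0.42 with a median of -0.05. In edgeR, 7 of 7 interferon response genes tested were called higher with control siRNA (median 4.89), as were 4 of 8 fibroblast markers (0.73). Of the mitosis, pluripotent cell and endothelial markers tested 0 were called. This comparison shares its control siRNA and untransfected libraries with the other 2.

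**Figure D3:**
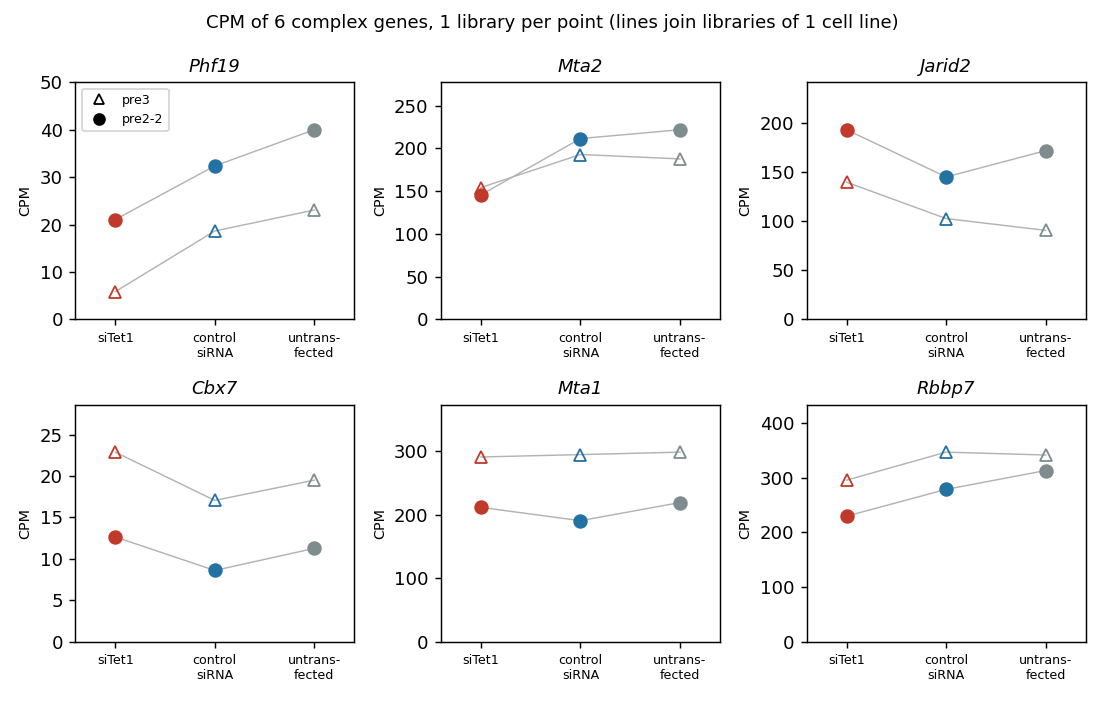
CPM of Phf19, Mta2, Jarid2, Cbx7, Mta1 and Rbbp7 in each of the 6 libraries, with the treatments along the horizontal axis, triangles for pre3, circles for pre2-2 and the points of a line joined. Phf19 and Mta2 are lowest with siTet1 in each line, at 5.85 and 21.1 CPM for Phf19 in pre3 and pre2-2, and Mta1 is above 290 CPM in every pre3 library and below 219 CPM in every pre2-2 library.

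Between the lines, 5 of 40 members (12.5%) were called, while 30.2% of all genes were, 14.4% higher and 15.8% lower. Cbx7, Mta1 and Rbbp7 were higher in pre3, and Phf19 and Jarid2 were lower in pre3. The median log2 difference over the members was 0.01, against 0.00 over all genes, and 12 members (30.0%) passed an unadjusted p under 0.05, against 40.2% of all genes. For 35 of 40 members the 95% interval lay within a 2-fold change either way.

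Mta1, a NuRD scaffold, had 290.4, 294 and 298 CPM in the siTet1, control siRNA and untransfected libraries of pre3, against 211, 190.3 and 219 CPM in those of pre2-2. The lines did not overlap, and the log2 difference was 0.51 (SE 0.10, adjusted p = 0.00022). Jarid2 had 139.9, 103 and 90.8 CPM in the siTet1, control siRNA and untransfected libraries of pre3, against 193, 145 and 172 CPM in those of pre2-2. Every pre3 library lay below every pre2-2 library, and the difference was -0.63 (SE 0.12, adjusted p = 0.00015). Phf19 had 5.85, 18.7 and 23.1 CPM in the siTet1, control siRNA and untransfected libraries of pre3, against 21.1, 32.4 and 40.02 CPM in those of pre2-2, and its difference was -1.001 (SE 0.21, adjusted p = 0.0008). The untransfected pre3 value of Phf19 lay above the siTet1 value of pre2-2, so the lines overlapped for this gene. Cbx7 had 22.9, 17.1 and 19.5 CPM in the siTet1, control siRNA and untransfected libraries of pre3, against 12.6, 8.60 and 11.3 CPM in those of pre2-2. Every pre3 library lay above every pre2-2 library, and the difference was 0.86 (SE 0.24, adjusted p = 0.0078) on at most 43.2 counts. Rbbp7 had 295, 346 and 341 CPM in the siTet1, control siRNA and untransfected libraries of pre3, against 229, 278 and 313 CPM in those of pre2-2. It was higher in pre3 within each treatment, the lines overlapped across treatments, and the difference was 0.27 (SE 0.09, adjusted p = 0.035).

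Mta1 and Jarid2 were called in every alternative run for the line comparison. Phf19 was called in DESeq2 and in each omission of a library but not without the treatment term (adjusted p = 0.1). Cbx7 was not called without either control siRNA library (adjusted p = 0.051 each) or in DESeq2 (0.16), and Rbbp7 was not called in DESeq2, without the treatment term, or on leaving out any of the 4 siTet1 and control siRNA libraries (adjusted p between 0.19 and 0.28). In the GENCODE annotation of GRCm38, 7.42% of the exon bases of Rbbp7 overlap Txlng on the opposite strand. Rbbp4 overlaps Sync (11.8%) and Mtf2 overlaps Tmed5 (9.73%) on the opposite strand, and Cbx6 overlaps Npcd (9.70%) on the same strand. The strand setting of the counting is not given in the sources used here, so reads of these pairs may be split between them. Of the rest, the core PRC2 genes Ezh2, Suz12 and Eed gave 0.02, -0.12 and -0.31, Rnf2 -0.27, Sin3a 0.11, Chd4 -0.13 and Mbd3 0.09, and none of these passed. The markers moved with line as well: in edgeR 7 of 8 fibroblast markers (median log2 difference -1.41), 6 of 7 interferon response genes tested (-2.40) and 2 of 2 endothelial markers tested (-2.42) were lower in pre3. Of the mitosis genes 5 of 6 were higher in pre3. Of 7 pluripotent cell markers listed 4 passed the filter, and 3 of these were higher in pre3, with Pou5f1 at 2.45 on the log2 scale. Nanog and Esrrb were low in every library, as given above, and the Pou5f1 counts may include transcripts of an introduced copy. The part of these markers in the 5 member differences was not tested.

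The difference between the lines in their response to siTet1 was tested as an interaction, the controls of a line being its control siRNA library and its untransfected library together. No member was called in edgeR and 0 passed an unadjusted p under 0.05, against 0.0% of all genes called and 270 of 11048 at the unadjusted level. DESeq2 was not run for it. The interval for Phf19 was -2.17 to 0.09 and that for Mta2 -0.20 to 0.75 on the log2 scale, and that for Phf19 reached past a 2-fold difference in response between the lines.

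Other subunits of the same complexes were read from a list of 38 genes, of which 37 were in the tables and 35 passed the filter on low counts. None was called between siTet1 and control siRNA or between control siRNA and untransfected cells in edgeR, against 1.58% and 1.48% of all genes, and DESeq2 called 0 in each. At an unadjusted p under 0.05 there were 7 (20.0%, against 10.8% of all genes) and 0 (against 9.22%) in edgeR. Against untransfected cells, 1 of 35 was called higher with siTet1 in edgeR (2.86%, against 4.92% of all genes). This was Sall1, a zinc finger protein that binds NuRD, at 105 and 124 CPM in pre3 and pre2-2 against 67.7 and 90.9 CPM in untransfected cells. Its log2 difference was 0.53 (SE 0.15, adjusted p = 0.028) in edgeR. Leaving out either siTet1 library, or the untransfected or control siRNA library of pre3, ended its call (adjusted p between 0.058 and 0.35), and DESeq2 did not call it (0.53). Between the lines 6 were higher in pre3 and 2 lower, 22.9% of those tested against 30.2% of all genes. Bcor, a subunit of variant PRC1 built on Pcgf1, had 127, 164 and 161 CPM in the siTet1, control siRNA and untransfected libraries of pre3, against 85.2, 86.5 and 108 CPM in those of pre2-2, a difference of 0.69 (SE 0.12, adjusted p = 4.8e-05) in edgeR. Sall4, another NuRD-binding zinc finger protein of pluripotent cells, had 40.96, 36.8 and 33.9 CPM in the siTet1, control siRNA and untransfected libraries of pre3, against 58.5, 69.8 and 79.3 CPM in those of pre2-2, a difference of -0.89 (SE 0.15, adjusted p = 6.7e-05) in edgeR. Other called subunits included Zmynd8 at 0.61, Ing1 at 0.38, Aebp2 at 0.36, Kdm2b at 0.36 and Sap130 at -0.32. Bcor, Sall4 and Zmynd8 kept their calls in every alternative, and Ing1, Aebp2, Kdm2b and Sap130 lost theirs in DESeq2 and in at least 4 of the 6 omissions.

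Genes that Polycomb complexes are known to hold silent in embryonic stem cells were examined as a read-out of the pathway. Of 44 developmental targets listed, 18 passed the filter on low counts, and 19 of 39 Hox genes did. A gene that passed only through the line where it is high was selected for a difference between the lines. The counts below are therefore a description of the genes tested and not of the lists. Between siTet1 and control siRNA, 1 of 18 targets was called, the homeobox gene Tlx3, at 5.32 and 1.41 CPM with siTet1 in pre3 and pre2-2 against 15.5 and 10.6 CPM with control siRNA, a log2 difference of -1.99 (SE 0.48, adjusted p = 0.03) in edgeR. It was not called in DESeq2 (adjusted p = 0.65) and its call also ended on leaving out the siTet1 library of pre2-2 (-1.49, adjusted p = 0.59), the control siRNA library of pre2-2 (0.28) or that of pre3 (0.17). Over the 18 targets the median log2 difference between siTet1 and control siRNA was 0.40, against 0.00 over all genes. Of these differences 13 were positive and 5 negative, with medians of 0.47 in pre3 and 0.11 in pre2-2. At an unadjusted p under 0.05 there were 7 targets in edgeR (38.9%, against 10.8% of all genes) and 2 in DESeq2. Against untransfected cells 0 of 18 targets, Tlx3 included, were called lower with siTet1 in edgeR. The lowest target difference there was -1.40, so Tlx3 differed less from untransfected cells than from control siRNA. No Hox gene was called in any of the 3 treatment comparisons in edgeR, with 0 at an unadjusted p under 0.05 for siTet1 against control siRNA and 1 in each of the other 2, and DESeq2 called 0 in each.

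Against untransfected cells 3 of 18 targets (16.7%) were called higher with siTet1 in edgeR, against 4.92% of all genes. None of the 3 was called between siTet1 and control siRNA, or between control siRNA and untransfected cells. The part of transfection in their differences was not tested. Cdkn2b, a cell-cycle inhibitor, stood at 18.6 and 42.6 CPM in siTet1 cells of pre3 and pre2-2 against 9.75 and 20.6 CPM in untransfected cells, a difference of 1.01 (SE 0.24, adjusted p = 0.011) in edgeR. Meis2, a homeobox cofactor, stood at 42.6 and 73.5 CPM against 26.7 and 41.2 CPM, a difference of 0.77 (SE 0.19, adjusted p = 0.015) in edgeR. Evx1, a homeobox gene of the primitive streak, gave 1.51 (SE 0.43, adjusted p = 0.031) in edgeR on values of 10.6 and 15.9 CPM against 2.56 and 6.61 CPM. All 3 were higher with siTet1 in each line, and none was called in DESeq2 or when the siTet1 or the untransfected library of pre2-2 was left out, with adjusted p between 0.056 and 0.6. Of the 18 targets, 8 passed an unadjusted p under 0.05 against untransfected cells in edgeR (44.4%, against 19.5% of all genes), and 6 in DESeq2.

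Of all genes tested, 30.2% were called between the lines in either direction. Among 18 targets tested 8 were higher and 5 lower in pre3, and among 19 Hox genes 4 were higher and 2 lower. The filter selected in part for such differences, so these 2 sets of counts are not weighed against that share. Of these calls, 5 of 13 targets and 3 of 6 Hox genes had no library with 10 counts in the line where they were low. Those 8 passed the filter through the other line alone, so the filter selected for a difference and nothing is read from their number. They were Sox1, Gata4, Hoxd9 and Hoxd8, carried by pre3, and Pax7, Irx3, Eomes and Hoxb9, carried by pre2-2. Sox1, a neural transcription factor, had 39 counts over the 3 pre3 libraries and 2 over the 3 pre2-2 libraries, and Pax7, a muscle and neural crest factor, had 2 over the pre3 libraries and 53 over the pre2-2 libraries. Otx2, an anterior neural gene, had 30.3, 15.5 and 13.8 CPM in the siTet1, control siRNA and untransfected libraries of pre3, against 8.43, 3.54 and 4.66 CPM in those of pre2-2, a difference of 1.82 (SE 0.29, adjusted p = 2.6e-05) in edgeR. Every pre3 library lay above every pre2-2 library. En2 gave 2.26, with 10 counts in only 1 pre2-2 library. Of the Hox genes, Hoxd4 (1.20) and Hoxc4 (0.93) were called higher and Hoxa9 (-1.24) lower in pre3, and each lost its call in DESeq2 and in at least 2 omissions of a library. Hoxd4 had 10 counts in only 1 pre2-2 library, and Hoxa9 in only 1 pre3 library.

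**Figure D4:**
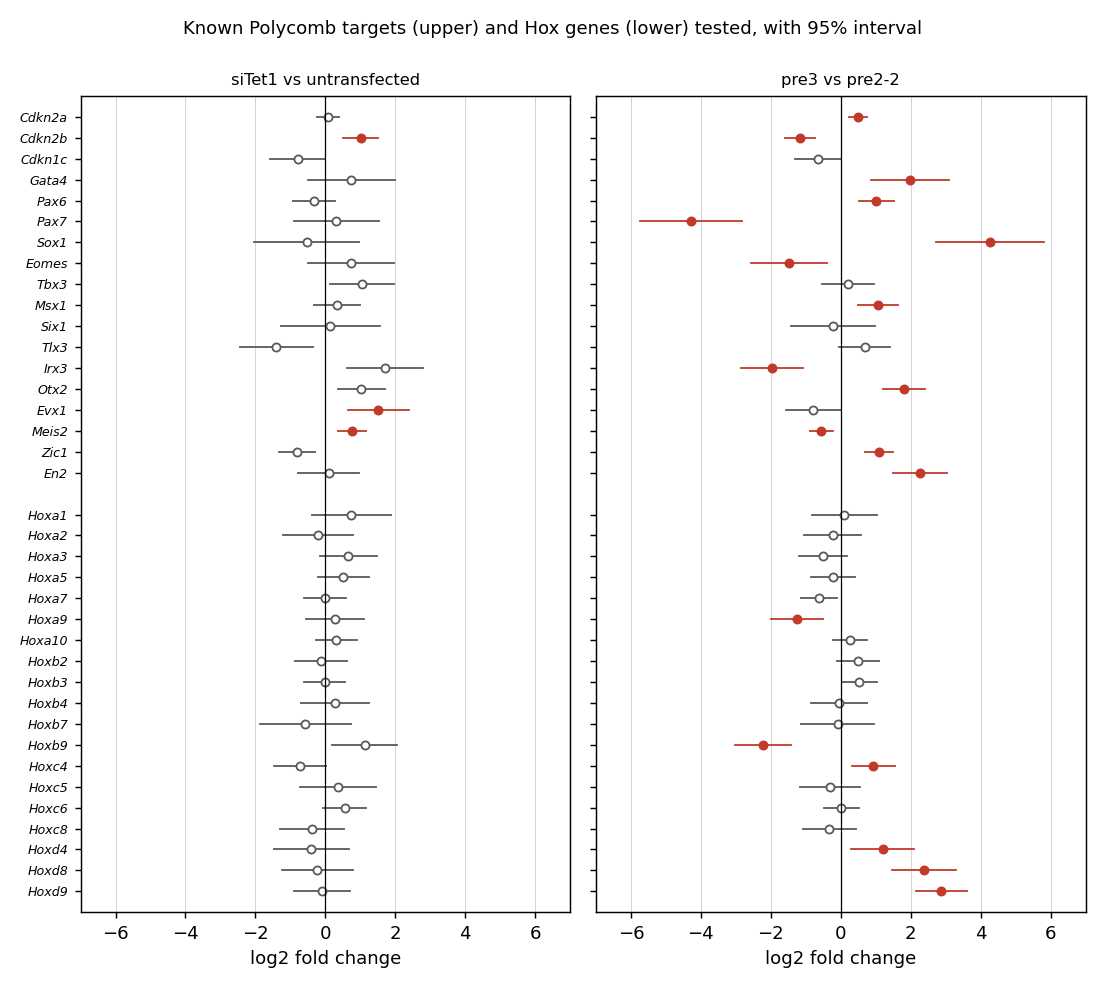
Fitted log2 differences with 95% intervals for the Polycomb targets and Hox genes that passed the filter on low counts, for siTet1 against untransfected cells and for pre3 against pre2-2. Filled points pass the test. In the comparison of lines 13 of 18 targets and 6 of 19 Hox genes pass the test, among them 5 targets and 3 Hox genes that had 10 counts in libraries of 1 line only, and in the comparison with untransfected cells Cdkn2b, Meis2 and Evx1 pass it.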

How the data were processed

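Gene tables of 6 libraries were used. Per the file headers they hold RSEM expected counts and fractions of transcripts per gene. The deposited expected counts and fractions were made by the authors with RSEM 1.1.21 on mm9, per the submitters' processing notes. Between 18.7 and 21.4% of expected counts were not whole (tolerance 0.005), and counts were rounded. Fractions times 1000000 gave TPM. The rest was computed here. edgeR 4.0.16 in R 4.3.3 (TMM, low-count filter of 10 by treatment, terms for line and treatment, Benjamini-Hochberg over 11048 genes) gave log2 differences, with calls at adjusted p under 0.05. Replicate numbers mark the line, so the line term is the pairing block; libraries correlated at 0.950 to 0.971 within and at 0.874 to 0.931 between lines. Simulated 2-fold increases in siTet1 against control siRNA were called for 81.6% of genes and halvings for 64.4%. The simulation gave every gene the same dispersion, no effect of control siRNA and the same response in both lines. These shares may therefore overstate detection in the real libraries. Alternatives were DESeq2 1.42.0, other scaling, no filter, other terms and omission of each library. Members and lists were chosen with earlier results of these data known. Named genes were all members, Tet1 and, of other lists, at most 6 called genes per list and comparison by size; 1 of these is not reported here. A series-wide table of the same libraries was not used; 1 of its columns, headed pre2-2_siTet2, matches no sample label.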

Additional observations from a re-analysis of the deposited data

How the results depend on the processing

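Of the 40 members, those called between siTet1 and control siRNA numbered 0, but 1 without the low-count filter, 3 with the replicate block on 4 libraries and 0 to 3 with a library left out. Against untransfected cells the 2 became 0 in DESeq2 and 0 with no replicate block (line left out), and 1 to 8 with a library left out. Between lines the 5 became 3 in DESeq2, 3 with no treatment term and 3 to 7 with a library left out. Control siRNA against untransfected cells gave 0 members in each alternative run, and the interaction 0 in those run for it.

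Over all genes, siTet1 against control siRNA gave 175 calls, 24 in DESeq2, 292 without filter, 0 with no replicate block (178 at an unadjusted p under 0.05), 611 with the replicate block on 4 libraries and 34 to 632 with a library left out. Control siRNA against untransfected cells gave 164, 32 in DESeq2, 257 without filter, 0 with no replicate block (84 unadjusted) and 22 to 728. siTet1 against untransfected cells gave 724, 87 in DESeq2, 0 with no replicate block (353 unadjusted) and 172 to 1897. The lines gave 3338, 1429 in DESeq2, 2061 with no treatment term and 2132 to 3626. The interaction gave 0, and 7 without filter. The interferon gene Ifit1 gave -2.77 to 0.51 for siTet1 against control siRNA with a library left out, turning positive, at 0.40 and 0.51, without the control siRNA or siTet1 library of pre2-2. The cause of these changes was not tested. Low depth limits Pcgf1 (5 to 14 counts per library, SE 0.57 on the log2 scale for siTet1 against control siRNA) and Cbx8 (7.96 to 16, SE 0.49).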

Other observations

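For many members the difference between control siRNA and untransfected cells had opposite signs in the 2 lines. Of 40 members, 22 (55.0%) were higher with control siRNA than in untransfected cells in pre3 and lower in pre2-2, against 23.0% of all genes tested, and 7 (17.5%) showed the reverse, against 24.6%. The 22 included 5 of 8 PRC2, 7 of 16 PRC1, 1 of 4 Sin3 and Ogt, 6 of 8 NuRD and 3 of 4 shared genes. Eed showed differences of 0.36 in pre3 and -0.26 in pre2-2 on the log2 CPM scale, Gatad2a 0.29 and -0.24, Suz12 0.36 and -0.13, and Mbd3 0.24 and -0.14. Sin3b went the other way, with -0.32 in pre3 and 0.39 in pre2-2. Each line's differences share 1 control siRNA and 1 untransfected library, so the members are not independent and no test was made. The untransfected pre2-2 library correlated with the pre3 libraries at 0.918 to 0.931, above the other values between lines (0.874 to 0.911), which is a measurement beside this pattern whose part in it was not tested.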
